A study of Mus musculus with 45 samples.

Results

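The change from day 4 to day 7 in one culture of wild type mouse B cells is described here, the culture labelled TLR. The 6 libraries were taken by their labels, 3 of day 4 and 3 of day 7, out of 45 libraries in 15 groups of 3, and no measured value was used to choose them. The study followed splenic B2 cells, the recirculating B cells of the spleen, as they became antibody-secreting cells in culture. The cells came from wild type C57BL/6 male mice labelled 7 weeks old, and the protocol gives a purity above 95% after depletion with a CD43 kit. They were grown on irradiated mouse L cells, a fibroblast line, that carry CD40L. The stimuli were 50 ng/mL each of IL-5 and IL-4 and 5 µg/mL of LPS. The cells left the feeders at day 2. At day 4 they were seeded again in medium with amino acids, a lipid mixture, 100 ng/mL of APRIL and 10 ng/mL of IL-6. The labels call the cells plasmablasts at both days. Time in culture and the new medium therefore cannot be told apart. The day 0 B cells and the day 10 TLR cells, which share strain, sex and age, are given beside the values for orientation. The step is later compared with that of 2 other cultures. In the wild type BCR culture, labelled 7 weeks old, 12 µg/mL of antibody to IgM and IgG took the place of LPS. The dEx1A TLR culture was of cells lacking exon 1A of Prdm1, from females labelled 9 weeks old. It is not known here if a group's 3 libraries are from separate animals, so p-values measure the spread between libraries.

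Plasma cells are the end stage of the B lineage. Blimp-1, the product of Prdm1, together with Irf4 shuts down B cell genes and opens the secretory programme, while Pax5, Bach2 and Bcl6 hold the B cell or germinal centre state. Xbp1, made active through Ire1 (Ern1), enlarges the endoplasmic reticulum (ER) so that antibody can be folded, glycosylated and exported. Differentiating cells divide quickly as plasmablasts and leave the cycle as they mature.

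All values are the authors' log2 expression, with 3.04 standing for a count of 0. Differences are day 7 minus day 4 on that log2 scale with the standard error (SE) from limma. A gene passed where its Benjamini-Hochberg adjusted p was below 0.05. Both rest on a variance fitted over all 7 wild type groups (21 libraries), so they also reflect spread outside the TLR libraries of days 4 and 7. Wfdc17, for example, had an SE of 0.65 with SDs of 0.22 at TLR day 4, 0.15 at day 7 and 1.7 at day 10. Of 19497 genes tested, 3451 were higher at day 7 (17.7%) and 3633 lower (18.6%), and 1883 of the first and 1888 of the second differed by at least 1. In 9785 genes (50.2%) the 3 values of one day lay wholly above the 3 of the other. The assigned reads recovered from the values came to 28.47 to 30.25 M per library at day 4 and 21.97 to 35.48 M at day 7. Once immunoglobulin reads were set aside, 27.68 to 29.67 M were left at day 4 and 13.76 to 19.75 M at day 7. Against total reads in place of the authors' size factors, the median of all genes moved from −0.06 to −0.93 and the split became 1517 higher and 9460 lower. List counts under that scaling are given where they differ in direction. The GC offset of a library, its excess in GC-rich over GC-poor transcripts, was 0.18, 0.48 and −1.04 at day 4 and −0.80, 0.26 and −0.39 at day 7.

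Antibody transcripts held a far larger share of the reads at day 7 than at day 4. Immunoglobulin genes held 2.76%, 2.56% and 1.91% of the recovered reads in the day 4 libraries (2.41% ± 0.45, SD, n = 3). At day 7 they held 37.4%, 44.3% and 37.3% (39.7% ± 4.05, n = 3). The 2 sets of 3 were far apart, and the exact two-sided permutation p was 0.1, the smallest that 3 against 3 can give. The day 0 cells were at 1.96% ± 0.04 and the day 10 cells at 61.4% ± 4.39, so the share at day 4 was close to that of resting B cells. Jchain, which links IgM and IgA units into polymers, held 0.030%, 0.026% and 0.036% at day 4 and 4.90%, 3.24% and 3.69% at day 7. In bulk RNA, fewer cells of a type and less RNA per cell cannot be told apart.

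**Figure D1:**
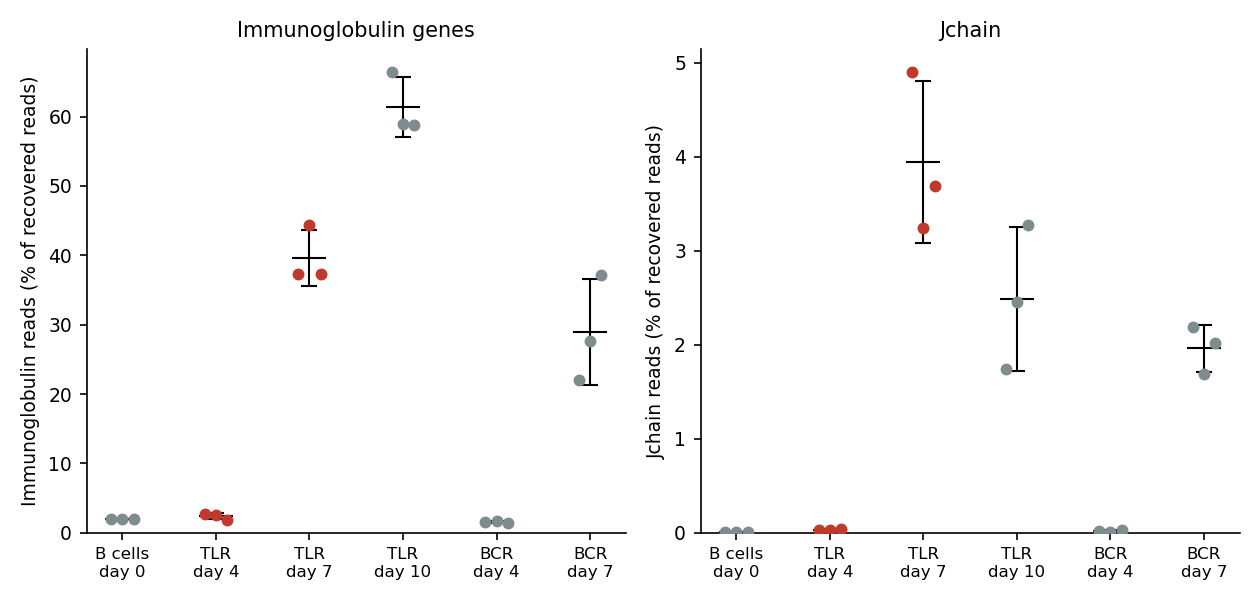
Share of recovered reads (%) from immunoglobulin genes (left) and from Jchain (right) in 6 wild type groups; points are libraries, bars the mean and SD of 3, and the TLR day 4 and day 7 libraries are red. The immunoglobulin share was between 1.91% and 2.76% at TLR day 4 and between 37.3% and 44.3% at day 7.

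Ranked by reads per kb and per M reads (RPKM), the most abundant transcripts at day 4 were Igkc (9830), the elongation factor gene Eef1a1 (7850), Ighm (5510) and B2m (2990), as means of 3 libraries. At day 7 they were Igkc (181000), Ighm (76900), Jchain (16900), Ighg1 (16200) and Iglc1 (10000). The first transcripts outside the immunoglobulin genes and Jchain were then B2m (3260), Eef1a1 (2640) and the ER chaperone gene Hsp90b1 (2550).

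Of the 13 genes of constant regions and J chain, 12 rose and none fell. Ighm, the IgM heavy chain, read 17.42, 17.33 and 16.78 at day 4 and 21.80, 22.15 and 21.73 at day 7, a rise of 4.72. Ighg1, the isotype that IL-4 favours, read 15.63, 15.57 and 15.18 and then 20, 20.55 and 19.99, also a rise of 4.72. The kappa gene Igkc rose by 5.12 ± 0.36 and the lambda genes Iglc1, Iglc2 and Iglc3 by 5.04, 4.15 and 3.67. Ighg3 rose by 6.40 ± 0.40 from 9.96, 9.87 and 9.07 to 15.79, 16.49 and 15.82. Ighg2b (6.14), Ighg2c (4.72), Igha (4.12) and Ighd (2.24) rose as well. Ighe, the IgE heavy chain, was the exception. It read 12.65, 12.59 and 11.95 at day 4 and 12.47, 13.02 and 12.43 at day 7, a difference of 0.24 ± 0.41 (adjusted p = 0.687), and the days overlapped.

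The shares of Ighm and Ighg1, counted as reads per kb among heavy chain constant genes, were steadier than these levels. All reads on a constant gene were counted, and whether its transcripts encode a complete heavy chain was not tested. Ighm held 80.0%, 79.7% and 78.2% at day 4 and 82.4%, 80.2% and 81.8% at day 7. Ighg1 held 15.8%, 16.1% and 17.6% and then 16.2%, 18.1% and 16.7%, so that the days overlapped. Ighe held 3.40%, 3.46% and 3.18% at day 4 and 0.148%, 0.166% and 0.15% at day 7, without overlap. The Ighd share was also lower, at 0.275%, 0.281% and 0.58% and then 0.0628%, 0.0617% and 0.0768%, although its level rose. Ighg3 went the other way, from 0.314%, 0.313% and 0.255% to 0.899%, 1.12% and 0.956%. So did Ighg2b, from 0.0797%, 0.0802% and 0.0676% to 0.256%, 0.213% and 0.207%. The day 10 libraries stood apart, with Ighm at 17.6% to 20.7% and Ighg1 at 72.0% to 75.0%. Kappa held 85.1% to 88.3% of light chain constant reads per kb at day 4 and 90.9% to 91.8% at day 7.

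**Figure D2:**
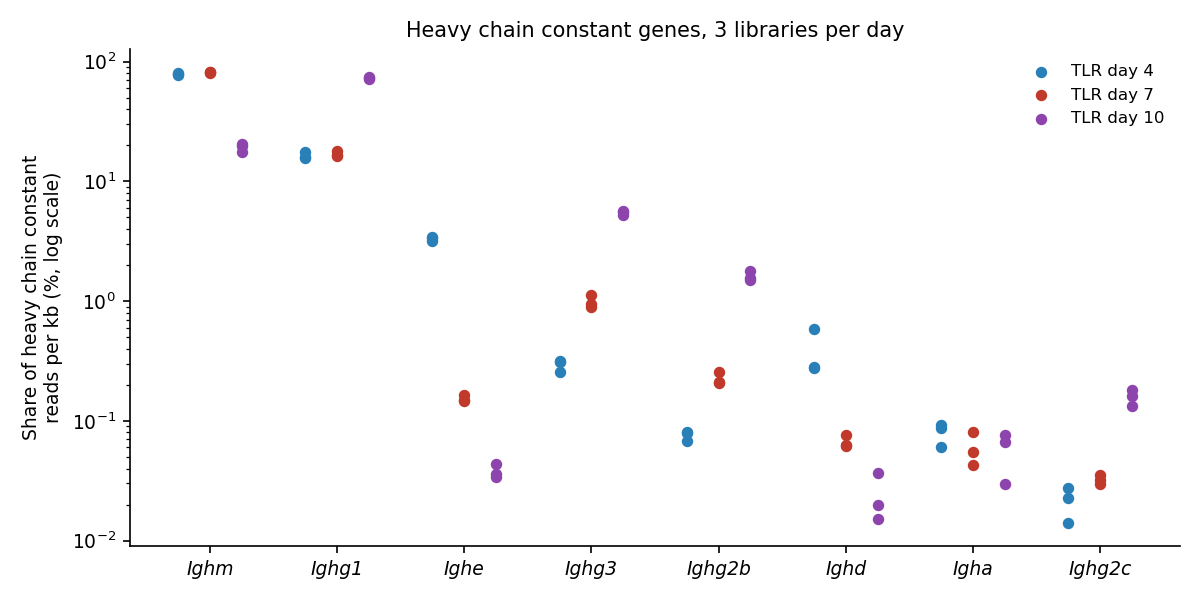
Share (%, log axis) of each heavy chain constant gene among heavy chain constant reads per kb in the TLR culture, 1 point per library, 3 libraries per day. Ighm (78.2% to 82.4%) and Ighg1 (15.8% to 18.1%) held similar shares at days 4 and 7, whereas Ighe held 3.18% to 3.46% at day 4 and 0.148% to 0.166% at day 7.

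The variable segments rose with the constant genes. Among segments of the heavy chain locus 105 of 108 tested were higher at day 7, with a median difference of 5.04 and a range of 0.66 to 5.88. Of the kappa segments 99 of 99 were higher (median 5.19), as were 3 of 3 lambda segments. The most used heavy segment was Ighv1-26 at both days, with 7.52% to 8.01% of variable heavy reads at day 4 and 8.70% to 9.49% at day 7. The effective number of heavy segments, the exponential of the Shannon entropy of their shares, was 59.2, 60.1 and 56.6 at day 4 and 53.1, 56.0 and 55.1 at day 7. For kappa segments it was 49.7 to 52.4 and 49.5 to 51.5, so these overlapped. Short reads from similar segments can be split among them, which limits what single segments show.

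The factors that drive plasma cell fate rose, while those that hold the B cell state did not all fall. Prdm1 read 9.83, 9.66 and 9.86 at day 4 and 13.43, 13.04 and 13.09 at day 7, near its day 10 mean of 13.47 and far above its day 0 mean of 6.50. The rise was 3.40 ± 0.31 (adjusted p = 1.14e-07). Irf4, which works with Blimp-1, read 13.43, 13.31 and 13.64 and then 15.45, 15.18 and 15.24. Xbp1 read 14.05, 13.81 and 14.06 and then 16.25, 16.20 and 16.17. Pax5, the factor of B cell identity, read 12.71, 12.60 and 12.67 at day 4 and 12.42, 12.07 and 12.15 at day 7 without overlap, yet the difference of −0.45 ± 0.20 did not pass (adjusted p = 0.0877). It stood at 14.64 at day 0 and 11.03 at day 10.

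Bach2 and Bcl6, both repressors of Prdm1, were higher at day 7 than at day 4. Bach2 read 9.84, 9.91 and 9.96 at day 4 and 10.71, 10.62 and 10.75 at day 7. Its difference of 0.79 (adjusted p = 0.0048) turned to −0.09 against total reads. Bcl6 read 8.26, 8.34 and 8.14 and then 9.12, 9.37 and 9.31, a rise of 1.02 that shrank to 0.18 and no longer passed against total reads. Both were lower again at day 10 (9.01 and 7.89), and both were higher at day 0 (12.76 and 10.80). Klf2, a quiescence and trafficking factor, was also highest at day 0 and higher at day 7 than at day 4 or day 10. It was at 13.00 at day 0, 7.65, 7.61 and 7.69 at day 4, 9.21, 9.39 and 9.64 at day 7, and 8 at day 10.

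Activation factors fell. Myc, the growth regulator, read 10.42, 10.73 and 10.24 at day 4 and 8.19, 8.74 and 8.51 at day 7, a fall of 1.98 on the log2 scale (adjusted p = 6.04e-07). Batf, an AP-1 factor of switching B cells, fell by 2.59 from 9.98, 10.19 and 9.48 to 6.79, 7.60 and 7.48. Of the 26 fate factors 9 were higher and 3 lower, with a median difference of 0.30. Against total reads the counts were 4 and 11. Irf8 (0.19), Spib (0.47), Ikzf3 (0.29), Id2 (0.25), Id3 (0.10), Zbtb20 (−0.52) and Zbtb32 (−0.31) did not pass. Pou2af1, the OCA-B coactivator, was at 0.77 (adjusted p = 0.0268) and was lost in 4 of the 6 fits that left out 1 library.

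Of 22 plasma cell markers 18 rose and 1 fell, and the median difference was 2.68. Sdc1, the surface marker CD138, read 6.60, 7.11 and 6.30 at day 4 and 10.29, 10.54 and 10.28 at day 7. Tnfrsf17, the APRIL receptor BCMA, read 4.02, 3.56 and 3.42 and then 7.70, 8.20 and 7.63, a rise of 4.18 ± 0.32. Cd93, which long-lived plasma cells need (3.31), the RNA-stabilising polymerase gene Tent5c (3.27), Ly6c2 (3.23) and the ER chaperone gene Mzb1 (2.04) rose too. Cxcr4, the receptor that draws plasma cells to the bone marrow, rose by 1.56 ± 0.23. Cav1, the caveolin gene, fell by 1.96. Slamf7 (0.24), Ly6k (0.35) and Ccr10 (−0.01) did not pass.

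The secretory pathway rose from translocation to the Golgi. Of 22 ER folding genes 20 rose and 1 fell (median 1.68). Of 20 genes of ER-associated degradation 16 rose (median 1.42), and of 24 genes of translocation into the ER 22 rose (median 1.16), with none lower in either list. Vesicle transport to the Golgi had 23 higher and 1 lower of 30 (median 0.94), and N-glycan synthesis 17 and 1 of 24 (median 0.94). Against total reads the counts shrank to 15 and 2, 11 and 4, 9 and 2, 5 and 5, and 4 and 3 in that order. The background for each count is the share of all genes given above.

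Within folding, Txndc5, a disulfide isomerase, read 12.01, 12.07 and 11.56 at day 4 and 15.60, 15.98 and 15.74 at day 7, a rise of 3.89 ± 0.28. Fkbp11, a prolyl isomerase of secretory cells, rose by 3.63, and the oxidase gene Ero1lb by 2.85. Its relative Ero1l was the 1 gene that fell, from 13.01, 12.76 and 13.57 to 12.20, 11.88 and 11.75. The chaperone gene Hspa5 (BiP) rose by 1.46 ± 0.25 and Hsp90b1 (GRP94) by 2.08 ± 0.33. Canx, calnexin, did not pass (−0.36 ± 0.21, adjusted p = 0.2), whereas its soluble relative Calr rose by 1.02 ± 0.15.

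In degradation, the mannosidase-like genes Edem3 (3.23), Edem1 (2.78) and Edem2 (2.45) and the ligase partner Sel1l (2.72) led. In translocation Tram2 (3.48), Ssr4 (2.64) and the signal peptidase genes Spcs1 (2.39) and Sec11c (2.12) led. The COPII coat genes Sec24a (2.37) and Sec24d (2.26) rose, while Sec24b was at −0.39. Fut8, which adds core fucose to antibody glycans, rose by 3.23, and B4galt1, a galactosyltransferase, fell by 1.14.

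Genes of the unfolded protein response were split. Of 16 sensors and factors 10 rose and 2, Trib3 and Ddit3, fell, or 6 and 5 against total reads. Ddit3, the CHOP gene, no longer passed without replicate 1 or 2 of day 4 or replicate 1 or 3 of day 7, which left 1 lower. Ern1 read 9.20, 8.97 and 8.87 at day 4 and 12.25, 12.55 and 12.37 at day 7, and the Xbp1 target Dnajb9 rose by 3.05. Trib3, a target of the Perk and ATF4 branch, fell from 8.23, 8.71 and 7.72 to 6.16, 6.65 and 5.85. Atf4 itself was at 0.11 and did not pass. Of 20 amino acid response genes under ATF4 2 rose and 9 fell (median −0.67). Psat1 of serine synthesis fell by 1.84, whereas Slc3a2, the CD98 heavy chain of amino acid transporters, rose from 11.63, 11.78 and 11.18 to 13.49, 13.71 and 13.52. Of 20 cytosolic tRNA synthetases none rose and 10 fell, with Dars (−1.11) and Sars (−1.02) lowest.

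The promoters of ER chaperone genes are printed because they share a known element, CCAAT followed by 9 bases and CCACG, the ER stress response element. A search of both strands from 250 bases before to 50 after each gene's start, in RefSeq promoters of GRCm38.p6, found it in 7 of 17 matched ER folding genes (41.18%). It was in 2 of 16 degradation genes (12.5%), in none of 20 mitosis genes, and in 37 of 27025 promoters overall (0.14%). A match is a description of letters, not a shown binding site. Capitals mark the 2 parts of the element, and each window runs 5′ to 3′ on the strand that reads CCAAT first.
Hspa5, site 65 bases before the start, chr2:34772013-34772055, plus strand: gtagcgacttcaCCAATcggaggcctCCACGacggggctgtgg
Hsp90b1, 107 bases before, chr10:86705521-86705563, plus strand: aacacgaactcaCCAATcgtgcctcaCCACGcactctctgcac
Dnajc3, 105 bases before, chr14:118937815-118937857, plus strand: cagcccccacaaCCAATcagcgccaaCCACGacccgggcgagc
Creld2, 126 bases before, chr15:88819508-88819550, minus strand: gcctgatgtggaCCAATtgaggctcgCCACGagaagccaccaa
Pdia6, 98 bases before, chr12:17266479-17266521, plus strand: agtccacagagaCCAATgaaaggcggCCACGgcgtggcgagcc
Derl3, 156 bases before, chr10:75893230-75893272, minus strand: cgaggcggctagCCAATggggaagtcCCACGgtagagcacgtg
Canx, 145 bases before, chr11:50325788-50325830, minus strand: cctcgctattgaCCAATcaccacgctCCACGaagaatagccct

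Of the genes printed, Hspa5 (1.46), Hsp90b1 (2.08), the cochaperone Dnajc3 (2.35), Creld2 (2.13), the isomerase Pdia6 (1.21) and Derl3 of the degradation channel (2.44) rose. Canx carries the element and did not pass. The element was therefore present in genes with both outcomes. These genes are named for the element in their promoters, and the printed windows are examples. Other matches, in Calr (1.02) and Syvn1 (1.48) and 212 bases before the start of Hsp90b1, are not printed.

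Cell division genes fell. Of 24 mitosis genes 23 fell and none rose (median −1.43), and of 27 genes of DNA replication and nucleotide synthesis 23 fell and none rose (median −1.60). Tyms, thymidylate synthase, read 10.96, 11.08 and 11.06 at day 4 and 8.32, 8.24 and 8.50 at day 7. The helicase gene Mcm3 fell by 2.42 and the kinesin gene Cenpe by 2.27. Mki67, the proliferation marker, read 14.29, 14.22 and 14.70 and then 13.59, 13.53 and 14.47 with overlap, and was the 1 mitosis gene that did not pass (−0.54, adjusted p = 0.0873). Cdk1 read 11.57, 11.57 and 11.52 at day 4, 10.28, 10.12 and 10.19 at day 7, and 6.60 at day 0, so day 7 lay well above the resting cells.

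Regulators of the cycle were mixed, with 5 of 21 higher and 7 lower. Cdk6, a G1 kinase, fell by 2.15 and the inhibitor gene Cdkn1a (p21) fell from 10.97, 10.97 and 10.59 to 8.53, 9.03 and 8.78. The transcription factor E2f2 (1.62) and the retinoblastoma gene Rb1 (1.55) rose. The inhibitors Cdkn1b and Cdkn2c passed at 0.88 and 0.77 but were at −0.01 and −0.07 against total reads.

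Mitotic promoters often carry the cell cycle homology region, TTTGAA or TTCGAA. It was in 15 of 20 matched mitosis promoters (75.0%), in 18.18% of 22 replication promoters and in 21.66% of all, searched on both strands in the same window. These 5 sites lie before the start, with the element in capitals, each on the strand that reads it. They are examples, and other mitosis genes with a site before the start, such as Ube2c and Prc1, are not printed. A match is a description of letters, and a link to the fall of the list was not tested.
Kif11, site 19 bases before the start, chr19:37376351-37376380, minus strand: ccgcgcctcaatTTTGAAaaatggagacga
Cdc20, 18 bases before, chr4:118437344-118437373, minus strand: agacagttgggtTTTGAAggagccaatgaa
Cdk1, 15 bases before, chr10:69352910-69352939, minus strand: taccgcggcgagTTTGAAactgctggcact
Top2a, 23 bases before, chr11:99024195-99024224, plus strand: tccctagtttcaTTTGAAcctttatctagc
Mki67, 98 bases before, chr7:135716460-135716489, minus strand: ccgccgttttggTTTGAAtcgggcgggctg

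Kif11, a spindle motor, fell by 1.44, Cdc20, an activator of the anaphase complex, by 1.36, Cdk1 by 1.36 and the topoisomerase gene Top2a by 1.39. Mki67 holds 2 such sites before its start and did not pass.

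Biosynthesis and sugar metabolism were lower at day 7. Of 17 glycolysis genes 15 fell and none rose (median −1.93). Gapdh read 14.03, 14.37 and 12.56 at day 4 and 10.43, 11.62 and 10.88 at day 7. Eno1, enolase, fell by 2.89, and Slc16a3, a lactate exporter, by 3.47 from 9.59, 9.89 and 7.87 to 5.37, 6.28 and 5.29. These genes were lowest at day 4 in replicate 3, the library with the lowest GC offset. After a correction for GC content and length, 16 of 17 fell (median −1.84). Hk2, hexokinase 2, was at 0.38 and did not pass.

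Of 20 ribosome biogenesis genes 17 fell and none rose, among them Npm1, nucleophosmin (−1.90). Cholesterol synthesis had 14 lower and 1 higher of 22. Idi1 of the isoprenoid branch read 12.98, 12.97 and 13.56 and then 11.52, 11.20 and 11.51, whereas Insig1, which restrains the pathway, was higher by 1.15 (0.26 against total reads, not passing). Among 17 genes of fatty acid and phospholipid synthesis 6 fell, such as Elovl6 (−1.96) and Scd2 (−1.65), and 2 were higher. Of 24 respiratory chain genes 2 were higher and 6 lower. That count of 6 was 2 with median centring and 3 without replicate 2 or replicate 3 of day 7. The mitochondrially encoded share of reads was 3.99%, 3.58% and 5.87% at day 4 and 3.60%, 2.22% and 3.24% at day 7 (exact permutation p = 0.2). That share is of all recovered reads, of which immunoglobulin genes held 37.4%, 44.3% and 37.3% at day 7. It therefore cannot show a fall of mitochondrial transcripts relative to the other genes.

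**Figure D3:**
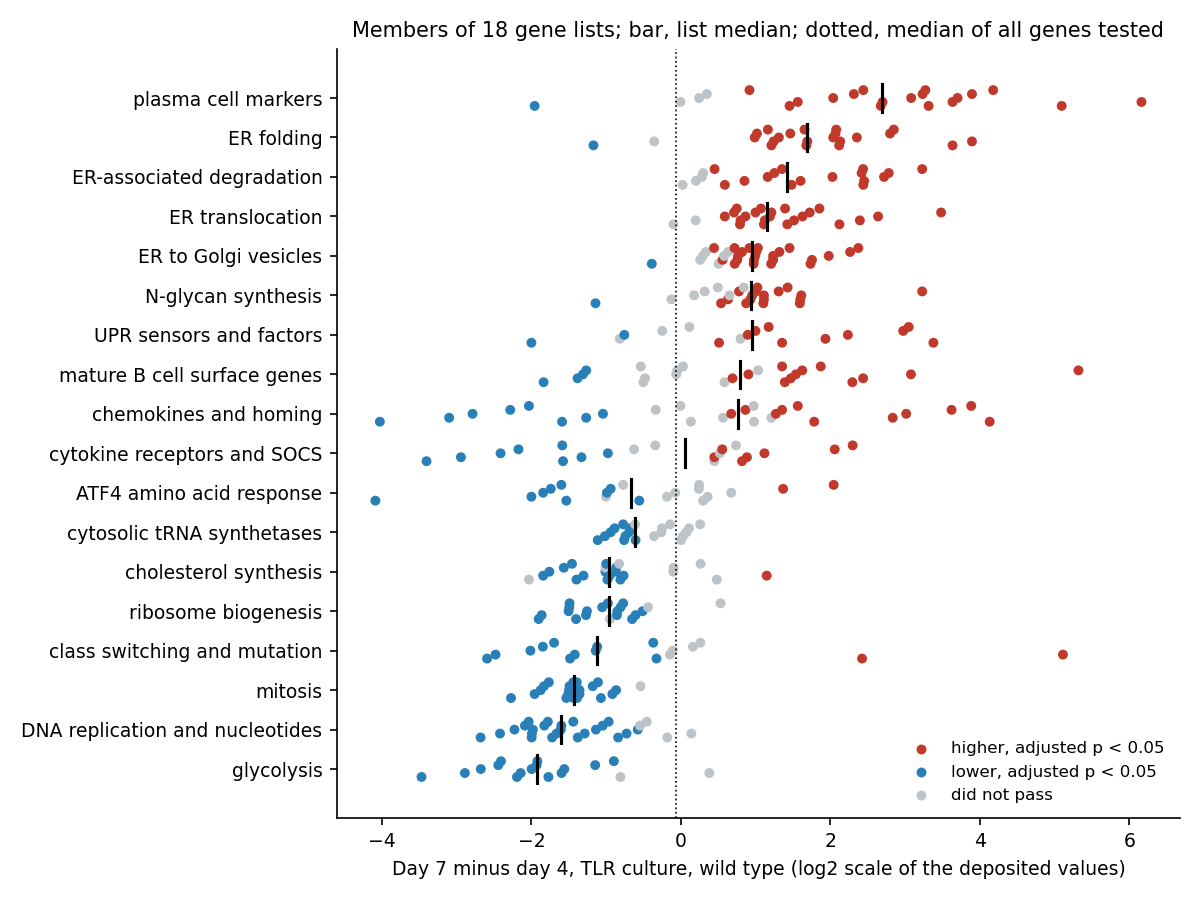
Day 7 minus day 4 differences (log2) of the tested members of 18 gene lists in the TLR culture, coloured by whether they passed; the black bar is the list median and the dotted line the median of all genes tested, −0.06. Secretory lists lie to the right (ER folding median 1.68) and glycolysis (−1.93), DNA replication (−1.60) and mitosis (−1.43) to the left.

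Surface genes of mature B cells moved in both directions, and the balance depended on the scaling. Of 24 such genes 12 rose and 4 fell (median 0.80), and 6 rose and 9 fell against total reads. Their summed reads per M reads were 5790, 5810 and 5080 at day 4 and 4450, 4370 and 4850 at day 7. Outside the immunoglobulin genes the sums were 5950, 5960 and 5180 and then 7100, 7850 and 7740. At day 0 these were 17900, 17200 and 17800. Fcrla, an intracellular Fc receptor-like protein on chr1:170917576-170927583, read 5.69, 5.73 and 5.72 at day 4 and 10.89, 11.09 and 11.11 at day 7, a rise of 5.32 ± 0.18. It stood at 12.57 at day 0. The inhibitory Fc receptor gene Fcgr2b rose by 3.08, the LPS coreceptor Cd180 by 2.44 and Ms4a1 (CD20) by 1.62. The costimulatory ligands Cd80 and Cd86 went the other way, by −1.84 and −1.31.

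Homing genes split into opposite groups. Of 26 chemokine, chemokine receptor and adhesion genes 11 rose and 8 fell (median 0.77), and against total reads 7 rose and 9 fell (median 0.31). S1pr1, the receptor by which lymphocytes leave lymphoid organs, read 6.12, 6.21 and 6.40 at day 4 and 10.32, 10.40 and 10.40 at day 7. Ccr6 read 6.10, 6.08 and 6.12 and then 9.59, 9.77 and 9.80. In both, the day 7 values lay between those of day 4 and the higher day 0 means of 13.03 and 10.82. The integrin subunits Itga4 and Itgb7, which together bind gut endothelium, rose by 3.01 and 2.83. Ccr7, the receptor for lymphoid zones, fell from 10.69, 10.76 and 10.03 to 6.86, 7.79 and 7.53, and was at 12.20 at day 0. Itgb3 (−4.03) and the T cell attracting chemokines Ccl17 (−2.79), Ccl5 (−2.28) and Ccl22 (−2.03) fell.

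**Figure D4:**
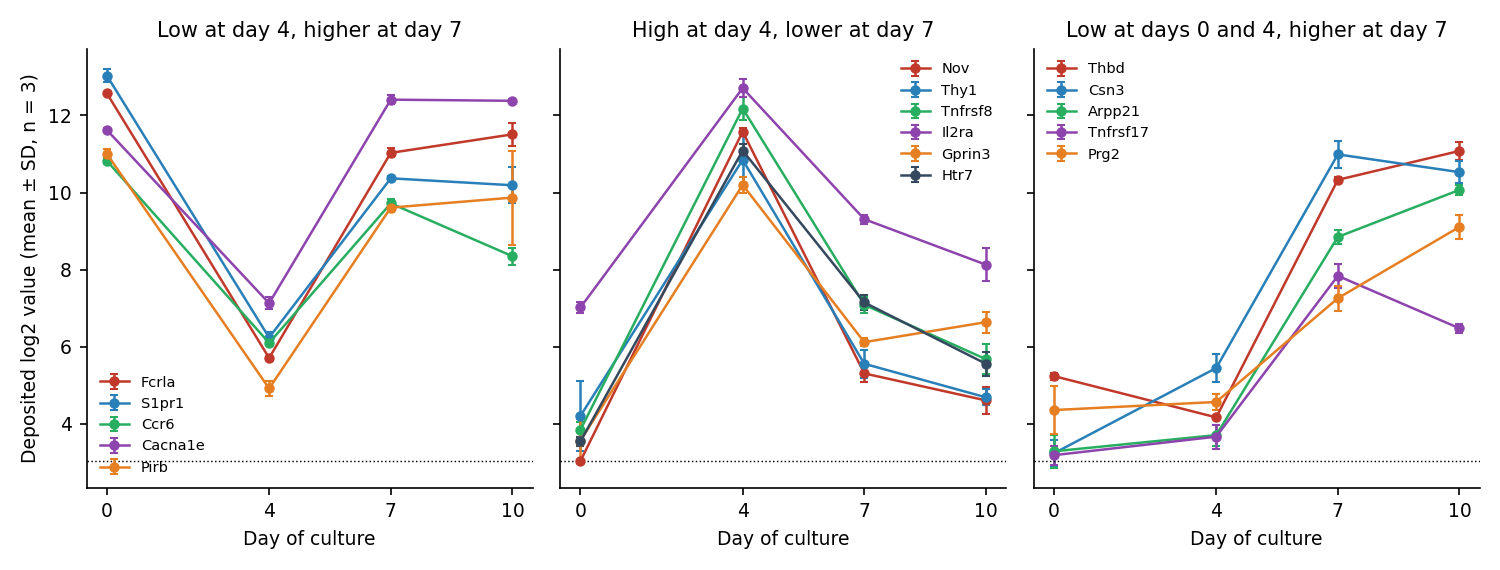
Deposited log2 values of 16 genes in day 0 B cells and the TLR culture at days 4, 7 and 10; points are means and bars SDs of 3 libraries, and the dotted line at 3.04 is a count of 0. The genes of the left panel, such as Fcrla and S1pr1, were lowest at day 4, those of the middle panel, such as Nov and Il2ra, were highest at day 4, and those of the right panel, such as Thbd, were highest at day 7 or 10.

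Receptors for the cytokines in the medium also moved. Il4ra, the receptor for the IL-4 of the first days, read 13.53, 13.67 and 12.39 at day 4 and 9.71, 10.74 and 10.31 at day 7. Il2ra, an activation marker, fell by 3.40 from 12.71, 12.49 and 12.94 to 9.44, 9.20 and 9.29. Il6st, the signalling chain for the IL-6 added at day 4, rose from 9.73, 9.46 and 9.79 to 12.00, 11.97 and 11.90. Il6ra, its specific chain, passed at 0.55 but was at −0.31 against total reads. Il5ra did not pass (−0.34). Csf2rb, the signalling chain of the IL-5 receptor, rose by 2.06. Over the 20 genes of this list 7 were higher and 8 lower, and the 7 were 4 when replicate 3 of day 4 and replicate 1 of day 7 were left out together.

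NF-kB genes had none higher and 6 lower of 16 tested, with the inhibitor Tnfaip3 (−2.63) and the subunits Nfkb1 (−2.20), Nfkb2 (−2.16) and Rel (−1.87) among them. Of 20 TNF receptor and ligand genes 2 were higher and 7 lower. Tnfrsf13b, the TACI receptor for APRIL, read 12.35, 12.22 and 12.53 and then 13.43, 13.13 and 13.29, a difference of 0.92 that became 0.03 against total reads. Survival genes were mixed, with 3 higher and 7 lower of 19 in the BCL2 family and caspase list. Mcl1, on which plasma cells depend, rose by 1.85 and Bcl2 fell by 1.87, while Bmf, a pro-death member, rose by 2.15.

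Genes of class switching and mutation had 11 lower and 2 higher of 17. Nuggc, a nuclear GTPase of germinal centre B cells, rose by 5.11, and the ligase gene Lig4 by 2.42. Among 14 genes for secretory immunoglobulin mRNA 5 rose and 3 were lower, but against total reads 2 were higher and 7 lower. The count of 3 was 1 with median centring and 5 with the GC and length correction. Ell2, the elongation factor that favours the secretory form, rose by 2.67 ± 0.28 and its partner Eaf2 by 3.08 ± 0.30.

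Interferon-stimulated genes had 11 lower and 4 higher of 21, with Isg15 (−2.49) and Usp18 (−2.15) lower and Irf7 (1.28) higher. Against total reads none were higher and 16 lower, and Irf7 was at 0.47 (adjusted p = 0.209). The count of 4 was 2 with median centring or without replicate 2 of day 4. The count of 11 was 7 without replicate 3 of day 7, and 6 when replicate 3 of day 4 and replicate 1 of day 7 were left out together. Genes of MHC class II presentation had 2 higher and 3 lower of 12. H2-DMa, of the peptide exchange factor, was at −1.92 (adjusted p = 0.0139) and was lost without replicate 1 or 2 of day 4 or replicate 1 of day 7. Class I genes had 1 higher and 5 lower of 13, and 2 lower without any 1 of those same libraries. Of 18 autophagy and lysosome genes 8 were higher and none lower, but against total reads 4 were higher and 4 lower. Wipi1 (2.05), an autophagosome protein, and Lamp2 (1.85) rose.

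The 15 largest rises of protein-coding genes began with Jchain (7.89, chr5:88519809-88527891, minus strand) and Thbd, thrombomodulin (6.16, chr2:148404466-148408188, minus strand). Pik3cg, the gamma catalytic subunit of PI3-kinase, read 8.65, 8.47 and 8.77 at day 4 and 14.45, 14.28 and 14.26 at day 7, above its day 0 mean of 11.54. Csn3, the milk protein kappa-casein, read 5.59, 5.04 and 5.73 and then 11.36, 10.64 and 10.96. The calcium channel subunit genes Cacna1e (5.29) and Cacna1h (5.01) rose, as did Sspn of the dystrophin complex (5.64), Arpp21 (5.14), the protease inhibitor Slpi (5.09), the RNA-binding Cpeb3 (4.98) and Reln, the secreted reelin (4.76). Wfdc17, which read 3.42, 3.04 and 3.42 at day 4, and the inhibitory receptor Pirb (4.69) complete the 15 with Fcrla and Nuggc. Several of these were already present in resting B cells. Cacna1e stood at 11.62 at day 0, 7.13 at day 4 and 12.41 at day 7, and Pirb at 11.00, 4.92 and 9.61.

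The largest falls were mostly of genes low at day 0 and high at day 4, with Itgb3 (9.56 at day 0) an exception. Nov, a secreted matricellular protein (chr15:54745702-54754039, plus strand), was at a count of 0 in all 3 day 0 libraries. It read 11.67, 11.47 and 11.59 at day 4 and 5.15, 5.56 and 5.21 at day 7, a fall of 6.27 ± 0.25. Tnfrsf8 (CD30) fell by 5.09, Lin28a, which blocks let-7 maturation, by 4.88, and Vldlr, a lipoprotein receptor, by 4.09. Htr7, a serotonin receptor, read 11.00, 10.97 and 11.29 and then 7.37, 7.08 and 6.99. Il6 fell by 3.84 from 9.90, 9.84 and 10.36 to 6.16, 6.33 and 6.08; which cells these transcripts came from was not tested. The retinal reductase gene Dhrs3 (−4.17), the kinase gene Ak4 (−4.12), Gprin3 (−4.09), Lad1 (−3.90), Oit3 (−3.87), the vitamin D receptor Vdr (−3.75) and the decoy receptor Il1r2 (−3.69) complete the 15 with Thy1 and Itgb3.

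Markers of other cells were checked beside these values. Of 10 tested fibroblast genes 8 were lower at day 7 and none higher. Their list of 14 summed to 172, 219 and 96.6 reads per M reads at day 4 and 2.73, 6.85 and 3.70 at day 7. Most of the day 4 sum was Thy1, which in the libraries read 11.11, 11.30 and 10.13 and then 5.42, 5.97 and 5.29. Without it the sum was 35.3, 59.2 and 31.3 and then 1.82, 5.33 and 2.84, against 2.59 to 6.42 at day 0. Dcn was at 0 in each of the 6 libraries. The part of feeder RNA in the falls, that of Thy1 included, was not tested. Macrophage genes summed to 58.9, 65.8 and 43.9 reads per M reads at day 4 and 80.0, 156 and 95.5 at day 7, with 5 of 15 higher, or 2 to 3 without any 1 day 4 library or replicate 2 of day 7. Lyz2 had 3, 6 and 3 reads at day 4 and 22, 821 and 44 at day 7, so replicate 2 of day 7 held most of them, and without it, or without any 1 day 4 library, Lyz2 did not pass. Itgam was higher in each day 7 library, with 9, 7 and 4 reads and then 163, 335 and 226. So was Cst3, with 818, 892 and 567 and then 1155, 2749 and 1722. Of the 15 macrophage genes 0 passed as lower. The 12 T and NK cell genes summed to 7.31 to 14.7 and then 4.41 to 6.00 reads per M reads, with Ncr1 at 0. Per M reads outside the immunoglobulin genes, the sums were 13.3, 15.1 and 7.45 and then 7.05, 10.8 and 9.55, with overlap. Among these 12 genes 2 were higher, Cd3g and Trac, and 0 lower. Cd3g had 5, 5 and 3 reads and then 18, 23 and 21, and Trac 8, 12 and 7 and then 17, 17 and 29. Erythroid and platelet genes summed to 3.31 to 8.38 and 1.09 to 3.52 per M reads, with Hba-a1 at 0. Outside the immunoglobulin genes their sums were 7.84, 8.6 and 3.37 and then 1.74, 6.33 and 2.75.

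The same step in the BCR culture, where antibody to IgM and IgG at 12 µg/mL took the place of LPS, was compared by an interaction test. It passed for 329 of 19497 genes (1.69%), 168 with a more positive step in TLR and 161 with a more negative one. The split was 113 and 243 with TMM scaling, 130 and 79 with median centring and 65 and 459 against total reads. Of 659 tested list members 22 passed (3.34%). Flt3, a cytokine receptor of early progenitors, fell in TLR from 10.11, 9.97 and 9.98 to 9.13, 8.93 and 8.92. In BCR it rose from 4.25, 4.24 and 3.78 to 7.71, 7.60 and 7.58 (difference of steps −4.57 ± 0.24). Trib1, a pseudokinase, rose by 3.14 in TLR and 0.86 in BCR. Arfgef3 rose by 1.21 in TLR and fell by 1.32 in BCR. Ccr7 (−2.45), Fcrla (2.10), Ell2 (2.02) and Fut8 (1.44) were among the 22 list members and were chosen after their values were seen. The immunoglobulin share in BCR was 1.51% ± 0.12 at day 4 and 29.0% ± 7.65 at day 7. For Prdm1 the difference of steps was 0.69 ± 0.44 (adjusted p = 0.536).

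**Figure D5:**
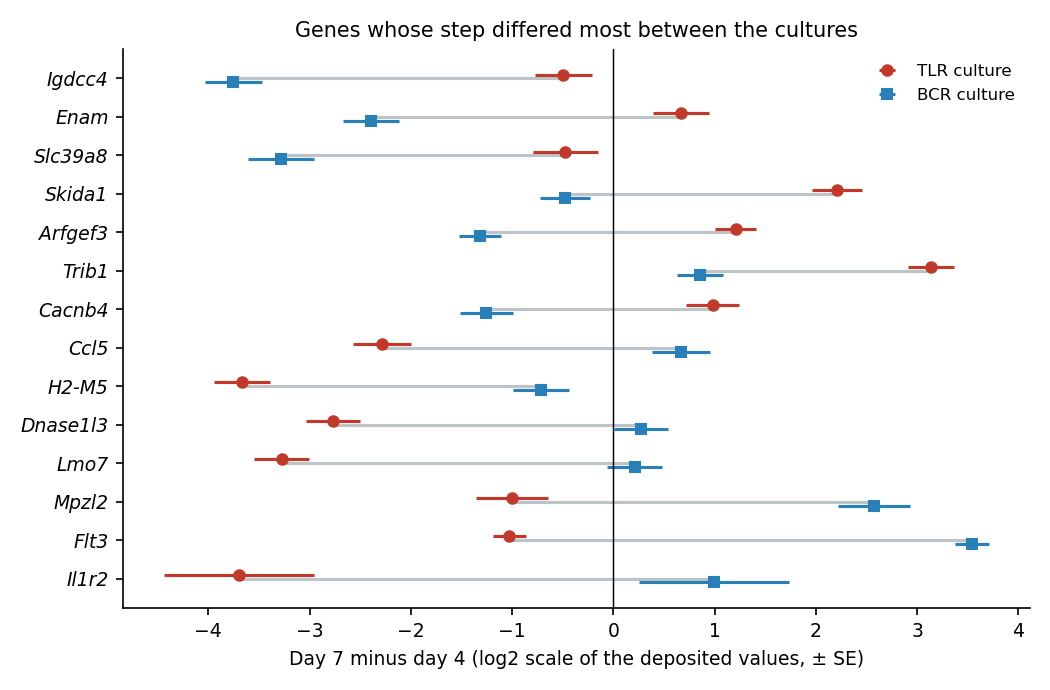
Day 7 minus day 4 (log2, ± SE from limma) in the wild type TLR (red circles) and BCR (blue squares) cultures for 14 of the genes with the largest tested differences between the steps. Flt3 fell by 1.03 in TLR and rose by 3.54 in BCR, and Trib1 rose by 3.14 and 0.86.

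The TLR step was also compared with that of dEx1A cells, which lack exon 1A of Prdm1. These came from females labelled 9 weeks old, so genotype, sex and age cannot be told apart. The test passed for 10044 of 20331 genes (49.4%), 5094 more positive in wild type and 4950 more negative. The split was 6990 and 3672 with median centring, 4213 and 5068 with TMM scaling and 2793 and 5814 against total reads. In that table the GC offsets were −0.32, −0.04 and −1.55 (day 4) and −1.31, −0.27 and −0.92 (day 7) in wild type. They were −1.75, −0.45 and −1.97 (day 4) and 1.05, 0.92 and 1.66 (day 7) in dEx1A, so the dEx1A day 7 libraries stood apart. With a correction for GC content and length 7896 genes passed. Tnfsf10, the death ligand TRAIL, rose in wild type from 5.76, 5.63 and 5.82 to 9.37, 9.03 and 9.16. In dEx1A it read 5.97, 5.31 and 5.65 and then 5.49, 5.48 and 5.34. Serpinb1a, a protease inhibitor, rose by 4.23 in wild type and by 0.73 in dEx1A, and Gpm6a by 4.49 and 1.03. These 3 differences of steps were 3.66, 3.51 and 3.45, and 2.76, 2.87 and 2.55 after the correction. The Prdm1 values are of the gene as a whole and cannot check the deletion.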

How the data were processed

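Total RNA was read as single 76-base reads after the TruSeq Stranded Total RNA kit, per the labels' protocols. RSEM 1.3.0, STAR 2.6.0c, DESeq2 1.22.2 in R 3.5.1, Trim Galore 0.6.0 and FastQC 0.11.8 were used per the submitters' processing notes, which list mm10, GRCm38.p6 and GRCh38.p12 as builds without a role. The authors deposited log2 values, which the file names describe as variance-stabilised RSEM gene values, in tables of 28196 genes. Gene coordinates came from GENCODE M21 (GRCm38). Cnksr3 was left out for 1 value below the floor.

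Each comparison was fitted in R 4.3.3 with limma 3.58.1, with a trend, over the 7 groups (21 libraries) of the wild type table, or both genotypes for dEx1A, where a value lay at least 1 above the floor in at least 3 libraries. P-values were two-sided and Benjamini-Hochberg adjusted within a comparison. Reads were recovered by inverting the transformation, and 95.0 to 100% of values under 20 reads were whole within 0.1. The scripts were tested on simulated data. No 2 replicates were copies (chi-square per gene from 11.92).

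Genes named by rule were the fate factors, constant regions and up to 4 passing members per list with exceptions. To these came the 15 largest rises and falls with a mean of at least 8, and markers of other cells. The 8 and 5 largest differences from the BCR and dEx1A steps were also named. Other genes, such as Klf2, Sdc1, Cd93, Hspa5 and Cdk1, were added as examples outside these rules. The 35 lists and their members were chosen with earlier results of these data known. Some genes that these rules would name are not reported here, and counts over lists and comparisons include them.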

Additional observations from a re-analysis of the deposited data

Results flagged for a closer look

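The day 4 to day 7 step differed between the TLR and BCR cultures by the interaction test in these genes, given as the TLR step minus the BCR step on the log2 scale. It was more positive in TLR for Igdcc4 (3.26), Enam (3.06), Slc39a8 (2.81), Skida1 (2.69), Arfgef3 (2.53), Trib1 (2.28) and Cacnb4 (2.23). Igdcc4, Enam and Slc39a8 did not pass within TLR and fell within BCR. It was more negative in TLR for Il1r2 (−4.68), Flt3 (−4.57), Mpzl2 (−3.58), Lmo7 (−3.49), Dnase1l3 (−3.04), H2-M5 (−2.95) and Ccl5 (−2.95). Flt3 and Mpzl2 fell in TLR and rose in BCR.

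Members of the gene lists, chosen after their values were seen, that differed by the same test were Fcrla (2.10), Ell2 (2.02), Scd2 (1.58), Insig1 (1.55) and Fut8 (1.44). More negative in TLR were Il9r (−2.80), Ccr7 (−2.45), Tnfrsf9 (−1.87), Cxcr5 (−1.76), Tnfaip3 (−1.26), Bcl6 (−1.15) and Pou2f2 (−1.10).

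Between wild type and dEx1A, the TLR step was more positive in wild type for Gm10273 (4.76), Tnfsf10 (3.66), mt-Atp6 (3.59), Serpinb1a (3.51) and Gpm6a (3.45). It was more negative for AC154187.2 (−10.3), Rpl36 (−7.72), Anxa2 (−6.94), Mif (−6.64) and Gm45234 (−6.41). Within wild type, Gm10273 (−0.07), mt-Atp6 (0.81), AC154187.2 (−2.78), Rpl36 (−1.57) and Gm45234 (−0.63) did not pass, whereas each passed within dEx1A. The dEx1A day 7 libraries were scattered for Gm10273 (4.50, 7.66 and 3.04) and mt-Atp6 (8.13, 11.17 and 9.29). Rpl36 stood at 12.77 ± 0.42 in the dEx1A day 7 libraries, where it was higher than in each of the other 9 libraries of this comparison. The part of their GC offset in these genes was not tested beyond the correction, which left −9.43 for AC154187.2, −5.80 for Rpl36, −6.63 for Anxa2, −4.53 for Mif and −4.81 for Gm45234.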

How the results depend on the processing

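The 7084 genes of the TLR step became 10977 against total reads and 3771 with a difference of at least 1 required. Other settings gave 4920 with a stricter filter to 8840 with the replicate block and GC and length correction, and leaving out 1 library gave 5671 to 6806. Without replicate 3 of day 4 and replicate 1 of day 7, a pair left out after seeing the data, the count was 5420. Against total reads these genes changed sign: Bach2 (−0.09), Ikzf3 (−0.60), Pou2af1 (−0.12), Cdkn1b (−0.01), Cdkn2c (−0.07), Ndufs3 (−0.34), Uqcrfs1 (−0.38), Pcyt1a (−0.12), Il2rg (−0.44), Il6ra (−0.31), Il10ra (−0.04), Ddx58 (−0.25), Gbp3 (−0.29) and Aff4 (−0.01). Of 204 genes named by rule that passed, 170 still passed there, and 186 to 198 with 1 library left out. The genes added as examples are not in this count.

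The 329 genes of the TLR against BCR test became 677 with only the compared groups in the fit, 209 with median centring, 524 against total reads, 970 with the GC and length correction and 929 with the replicate block added to it. Leaving out 1 library gave 172 to 325, and 167 without the pair above. The count moved by over 1.5 times without day 4 TLR replicate 1 (172) or 2 (198), day 7 TLR replicate 1 (197), day 4 BCR replicate 1 (198) or 3 (207), or day 7 BCR replicate 2 (189). The cause was not tested. The dEx1A test gave 8501 to 10731 with 1 library left out.

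Same-numbered TLR libraries of days 4 and 7 correlated at −0.692, 0.845 and 0.248 in their deviations from the group means. Day 4 replicate 3 and day 7 replicate 1, each with the lowest GC offset of its day, correlated at 0.817. Such deviations also hold library differences in GC offset, so they cannot show whether same-numbered libraries share an animal. With the replicate block the counts were 7150, 307 and 10074, and not every sample correlated best with its own number. The immunoglobulin share differed by 37.27 points under the pairing (exact sign-flip p = 0.25), by 34.93 to 38.45 with 1 library left out and by 29.93 for constant regions and J chain alone. The effective number of heavy segments differed by −3.9 (−4.92 to −3.08 with 1 library left out). Values near 3.04 rest on few reads and understate differences.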
